A study of Mus musculus with 2 samples.

Results

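The barcodes described here are those of a single-cell RNA-seq library that passed an endothelial limit and carried none of the hashtags to which the labels give a sample. They were chosen by 3 measures. Each had more than 2000 and fewer than 75000 gene UMIs (unique molecular identifiers, each counted as 1 captured molecule), more than 500 genes, and mitochondrial and haemoglobin shares below 5% each. Each had a Cdh5 value above 0.9. For this value the gene's share of the barcode's UMIs was multiplied by 10000, 1 was added and the natural log was taken. Each had fewer than 5 UMIs of HTO301, HTO303, HTO305, HTO306 and HTO307, and fewer than 60 of HTO302, the hashtag with the highest background. The rule found 2262 barcodes. They were part of the 14348 that passed the quality limits, of which 5887 had no hashtag and 7704 passed the Cdh5 limit, out of 2755147 barcodes in the unfiltered matrix.

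The 2 samples of the series are the gene expression reads and the hashtag reads of 1 10x Genomics library, in which cells of C57BL/6 pups were pooled. Hashtags are oligo-coupled antibodies, each added to the cells of 1 sample before pooling. Every pup had 1 injection of 40 mg/kg 4-hydroxytamoxifen at postnatal day 3, tissue was taken 3 days later, and the age is given as P6 to P7. The groups are liver and heart cells of control, of Cdh5-CreERT2 with iSuRe-Cre, and of Cdh5-CreERT2 with iSuRe-HadCre. Cdh5-CreERT2 is a tamoxifen-inducible recombinase driven by an endothelial promoter, so the alleles were induced in ECs (endothelial cells). Recombined iSuRe-Cre expresses a membrane Tomato reporter together with Cre, whereas iSuRe-HadCre expresses Cre transiently and then its reporter, after a second recombinase has removed Cre. The genotype of control, the number of pups per group and the floxed alleles of these cells are not in the labels. The protocol describes a sort for CD31+ MbTomato+ cells, whereas the design text speaks of Tomato signal being present or absent.

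For comparison, barcodes passing the same limits with at least 25 UMIs of exactly 1 labelled hashtag (140 of HTO302) formed 6 groups. They were 254 control heart, 435 iSuRe-Cre heart, 311 iSuRe-HadCre heart, 54 control liver, 858 iSuRe-Cre liver and 76 iSuRe-HadCre liver barcodes, 1988 in all. The barcodes without a hashtag held 12447765 UMIs, with a median of 3832 per barcode, whereas the group medians were 7322 to 16379. Each group is 1 sample of 1 library, so no test was possible and no p-value is given. Levels are CPM, the UMIs of a gene scaled to 1e+06 UMIs of the set. Intervals are exact 95% intervals, Poisson for CPM, conditional for ratios and binomial for shares. They hold counting error alone and leave out the spread between animals. A gene was counted as higher or lower when its CPM, with 10 CPM added, differed at least 2-fold from each of the 6 groups in the same direction.

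ECs line all vessels and share a core of genes, among them Cdh5 (VE-cadherin) and Pecam1 (CD31), both of the junctions between ECs. Beyond this core each organ has its own vessel bed. Liver sinusoidal ECs carry scavenger receptors such as Stab2, heart capillary ECs take up fatty acids with Fabp4 and Cd36, and lung capillary ECs express the transcription factor Foxf1, the prostaglandin-degrading enzyme Hpgd and Tmem100, which acts in BMP signalling. Droplets also capture free RNA released by broken cells, so a UMI of an abundant gene can be found in a barcode of any type.

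The label was checked first. Most of the 2262 barcodes did not have the core endothelial genes at the level of hashtagged ECs. Exactly 1 Cdh5 UMI was found in 40.2% of them, as against 0.690% to 8.51% in the 6 groups, and 1850 (81.8%) were so shallow that 1 UMI was enough to pass the limit, which it is below 6851 UMIs. Of the quality barcodes without a hashtag 38.4% (37.2 to 39.7) passed the Cdh5 limit. Among 2420 haemoglobin-rich barcodes, in which haemoglobin took at least 20% of the UMIs, at a median of 4230 UMIs, 38.1% passed the same limit. Pecam1, which the rule did not use, had a UMI in 63.4% of the barcodes without a hashtag, in 88.8% to 99.8% of the groups and in 33.0% of the haemoglobin-rich barcodes.

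The 14 other genes of the endothelial list, such as the VEGF receptors Kdr and Flt1, the receptor Tie1 and the junction gene Cldn5, gave a measure that does not rest on Cdh5. Their sum reached 5000 CPM in 773 barcodes, 34.2% (32.2 to 36.2) of those without a hashtag. In the groups 71.2% to 87.0% reached it, and in haemoglobin-rich barcodes 1.07%. Haemoglobin took a median of 30.2% of the UMIs of the latter, which lowers the share of every other gene in them, here and below. In free RNA, read from barcodes of 10 to 100 UMIs, the 14 genes summed to 2434 CPM. These 773 are called endothelial-rich below. The limit cuts a continuous measure, and 348 barcodes lay between 4000 and 6000 CPM. In the barcodes just inside the Cdh5 limit, with a value of 0.9 to 1.2, 6.83% of 205 were endothelial-rich. In those just outside it, with 0.6 to 0.9, 1.30% of 77 were.

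**Figure D1:**
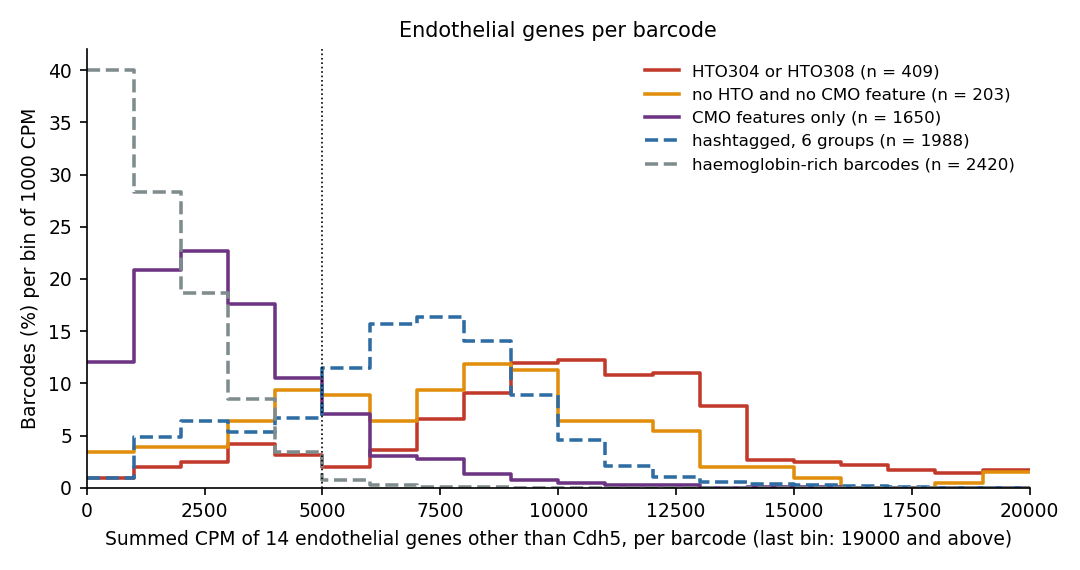
Distribution over barcodes of the summed level of 14 endothelial genes other than Cdh5 (x axis, CPM; y axis, percent of the barcodes of a set), with a dotted line at 5000 CPM. Barcodes with HTO304 or HTO308 lie mostly right of the line (87.3%), those with CMO features only mostly left of it (16.2% to the right).

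The matrix lists 7 further tag features to which the labels give no sample, HTO304, HTO308 and 5 named CMO301 to CMO305. The barcodes without a labelled hashtag differed in these. At least 25 UMIs of HTO304 or HTO308 were found in 409 of the 2262 (18.1%). HTO304 alone was found in 145, HTO308 alone in 257 and both in 7. Carriers had medians of 77.5 UMIs of HTO304 and 91.0 of HTO308, and the highest barcodes had 3721 and 8853. Near the limit, 81 barcodes had 10 to 24 UMIs of HTO304 and 201 of HTO308. In the 6 groups 0.787% to 3.95% of barcodes reached 25 UMIs of HTO304 and 3.22% to 9.26% of HTO308, as did 3.84% and 6.98% of haemoglobin-rich barcodes. Of the other 1853 barcodes, 1650 had at least 25 UMIs of a CMO feature and 203 had none of the 7. At least 1 CMO feature was found in 30.8% to 42.5% of barcodes in the 6 groups and in 97.1% of haemoglobin-rich barcodes. The labels do not say what any of these features marked, so the sets below are named by their feature only.

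These sets also differed in their endothelial genes. Endothelial-rich were 87.3% (83.7 to 90.4) of the HTO304 or HTO308 barcodes, 72.9% (66.2 to 78.9) of those with no feature and 16.2% (14.5 to 18.1) of those with CMO features only. The median sum of the 14 genes was 10263, 7867 and 2743 CPM in the same order, beside 2434 CPM in free RNA. A Pecam1 UMI was found in 98.04%, 87.7% and 51.8%, at median depths of 6961, 5242 and 3220 UMIs. After thinning every barcode to 2000 UMIs the shares with a Pecam1 UMI were 83.6%, 72.5% and 36.5%, and 17.3% in haemoglobin-rich barcodes. A single Cdh5 UMI was all that 52.5% of the barcodes with CMO features only had, as against 1.71% of those with HTO304 or HTO308.

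Clustering the 2262 barcodes on their own gave 21 clusters. A cluster was named only where at least 3 of its 10 leading genes by fold were markers of 1 list. For the most part the clusters split along the same line as the tag features. Clusters 2 (205 barcodes, led by Hpgd, Ace, Tmem100 and Gja4) and 12 (85 barcodes, led by Car4, Emp2 and Tbx2) were lung endothelial-like, and Hpgd, Tmem100, Sema3c and Calcrl, or Car4, Emp2 and Tbx2, are the list genes that named them. They were endothelial-rich in 99.5% and 98.8% and had HTO304 or HTO308 in 76.6% and 80.0%. A cluster led by Mki67, Cenpf and Nusap1 (76 barcodes, proliferation-like) and an unnamed cluster led by Kcnh1, Pde3a, Nell1 and Gna14 (63 barcodes) were endothelial-rich in 100% and 98.4% and had HTO304 or HTO308 in 84.2% and 82.5%. The leading genes are a description, since the clusters were made from them.

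Other clusters with many endothelial-rich barcodes had HTO304 or HTO308 less often. An unnamed cluster of 111 barcodes led by Btnl9, Tmem255a and Mmrn1 was 85.6% endothelial-rich with HTO304 or HTO308 in 14.4%, and had Fabp4 at 6479 CPM. An endocardial-like cluster of 68 barcodes (Tmem108, Npr3 and Hand2 among its leading genes) was 57.4% endothelial-rich with HTO304 or HTO308 in 1.47%. The largest cluster, unnamed with 246 barcodes, was led by the interferon-induced genes Rsad2, Ifit1, Ifit2, Ifit3, Isg15 and the chemokines Ccl5, Cxcl9 and Cxcl10. It was 40.7% endothelial-rich, with Fabp4 at 9488 CPM, and 91.9% of it carried a CMO feature and 1.22% HTO304 or HTO308.

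The remaining barcodes had leading genes of other cell types. Hepatocyte-like were 163 (Afp, Apoa1, Alb), cartilage-like 191 (Col2a1, Col9a1, Col11a1), macrophage-like 132 (Cd5l, Marco, C1qa), neutrophil and mast-like 158 in 2 clusters (Ngp, S100a8 and S100a9, or Elane, Prtn3 and Mpo), epithelial-like 57 (Krt5, Krt14, Epcam) and mural-like 24 (Acta2, Myh11, Tagln). The leading genes of these clusters differed in level, with Afp at 8399 CPM, Acta2 at 3650, Krt5 at 493, Myh11 at 438 and Col2a1 at 398. What part free RNA or mixed barcodes had in them was not tested. Stab2 was among the leading genes of the cartilage-like cluster, at 326 CPM. The muscle genes Mylpf (381 CPM) and Actc1 (706 CPM) were among those of the macrophage-like cluster. Endothelial-rich barcodes made up 1.85% to 19.3% of these clusters, and 95.8% to 98.2% of their barcodes carried a CMO feature. Further unnamed clusters were led by Twist2 and Foxd1 (195 barcodes), by Htr2c and Ptprz1 (129) and by Hpse2 and Col3a1 (127), and 1.03% to 6.30% of them were endothelial-rich. The other 4 unnamed clusters, of 166, 40, 14 and 12 barcodes, were led by Pyy and Cd74, by Gzma and Ccl4, by Cxcl10 and Ier2, and by Sftpc and Sftpa1, and 0% to 15.1% of them were endothelial-rich. The 2262 barcodes thus had leading genes of several cell types, with doublets not removed. They are called barcodes without a hashtag and not ECs.

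**Figure D2:**
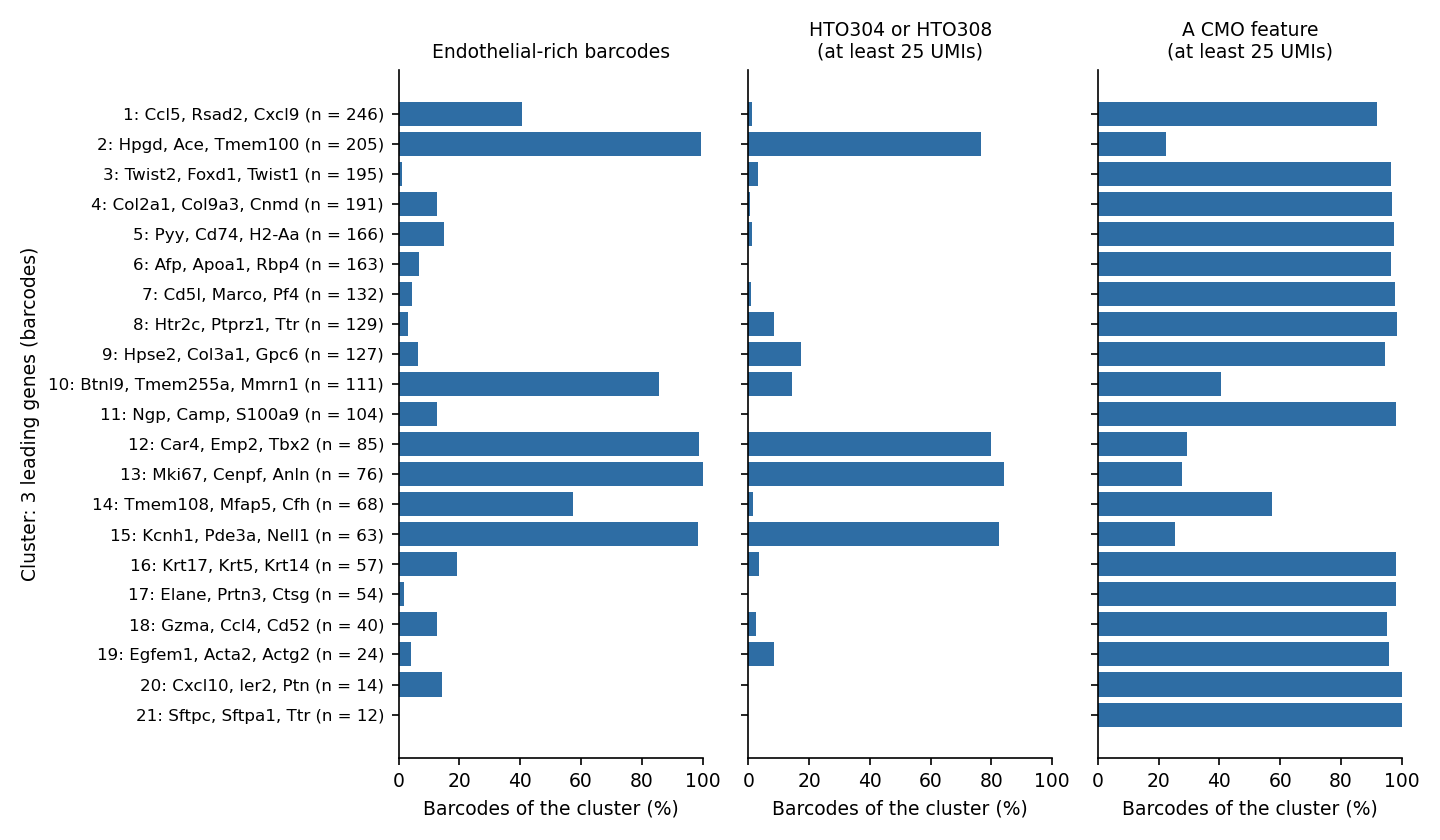
The 21 clusters of the 2262 barcodes (a row each, with its 3 leading genes), with the percent of each that is endothelial-rich, that has HTO304 or HTO308, and that has a CMO feature (x axis, percent). The 4 clusters with HTO304 or HTO308 in 76.6% to 84.2% are 98.4% to 100% endothelial-rich.

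The vessel-type genes of the HTO304 or HTO308 barcodes stood apart from both organs in the labels. Of 13 measured genes of the lung endothelial list 10 were at least 2-fold higher than in all 6 groups. Over all 10116 genes tested 104 were (1.03%). The median log2 ratio of the 13 to the mean of the groups was 2.36, and 0.03 over all genes. Summed, the list was at 8244 CPM in these barcodes, at 1184 to 2998 CPM in the groups and at 1071 CPM in free RNA (barcodes of 10 to 100 UMIs).

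Foxf1 (GRCm38, chromosome 8, 121084386 to 121088144, plus strand) was at 543 CPM (520 to 566) in the HTO304 or HTO308 barcodes. In the groups it was at 17.2 in control heart, 12 in iSuRe-Cre heart, 30.6 in iSuRe-HadCre heart, 70.5 in control liver, 21.1 in iSuRe-Cre liver and 45.4 in iSuRe-HadCre liver. All 6 groups thus lay far below it, and the ratio to the highest, control liver, was 7.70 (5.71 to 10.6). A Foxf1 UMI was found in 93.4% of these barcodes. Thinned to 2000 UMIs, the share was 65.6%, as against 2.0% to 7.5% in the groups and 4.43% in haemoglobin-rich barcodes.

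Hpgd (chromosome 8, 56294585 to 56321043, plus strand) was at 1519 CPM (1481 to 1558), in the groups at 44.6, 35.9 and 106 CPM in control, iSuRe-Cre and iSuRe-HadCre heart and at 344, 278 and 221 CPM in the same order in liver. The liver groups were above the heart groups, and all were below the HTO304 or HTO308 barcodes, with a ratio of 4.41 (3.85 to 5.08) to control liver. Tmem100 (chromosome 11, 90030348 to 90036508, plus strand) was at 1218 CPM (1183 to 1253) as against 38.5 to 264 CPM. Sema3c (chromosome 5, 17574281 to 17730268, plus strand), a secreted guidance cue, was at 554 CPM (531 to 578) as against 13.5 to 125 CPM. For both the highest group was control liver, the smallest group.

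The other list genes past 2-fold were Emp2 (494 CPM), a membrane protein of lung capillary and alveolar cells, Calcrl (1981), the receptor for adrenomedullin, Acvrl1 (377), a BMP receptor, Prx (215), and the T-box factors Tbx3 (354) and Tbx2 (97.9). Their ratios to the highest group were 2.19 to 4.53. Of the 3 that did not pass, Car4 was at 216 CPM beside 219 in control heart, Icam2 at 536 beside 501 in iSuRe-Cre heart, and Ednrb at 137 beside 529 in control liver.

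The same barcodes were lower than all 6 groups in 38 genes (0.376% of those tested), and capillary genes of fatty acid handling were among them. Fabp4 (chromosome 3, 10204088 to 10208576, minus strand), a fatty acid carrier, was at 286 CPM (270 to 303.7). In the groups it was at 18100, 13495 and 9772 CPM in control, iSuRe-Cre and iSuRe-HadCre heart and at 3703, 3488 and 4586 CPM in liver. Every group was thus far above it, as was free RNA with 2753 CPM, and the ratio to the lowest group was 0.0821 (0.0773 to 0.0871). Fabp5, of the same family, was at 196 CPM, a ratio of 0.261 to control liver. Of 15 capillary list genes 3 were lower (Fabp4, Fabp5 and Cd300lg) and none was higher, whereas Rgcc (375 CPM), Aqp1 (275) and Gpihbp1 (515) lay within the range of the groups. The transcription factor Pparg (1.78 CPM), which acts on fatty acid genes, and the VEGF co-receptor Nrp2 (60.1), the adhesion molecule Cdh13 (58.1) and the basement membrane genes Hspg2 (55.6) and Tinagl1 (28.7) were lower as well. Meox2 and Tcf15, paired factors of heart capillary ECs, were at 11.4 and 31.0 CPM as against 29.0 to 404 and 42.6 to 340 CPM. They lay below each group but did not pass 2-fold. Stab2 was at 4.82 CPM, as against 1446 in iSuRe-Cre liver, and Gata4, a liver sinusoidal factor, at 1.78 CPM as against 131.8 to 150 in the liver groups.

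**Figure D3:**
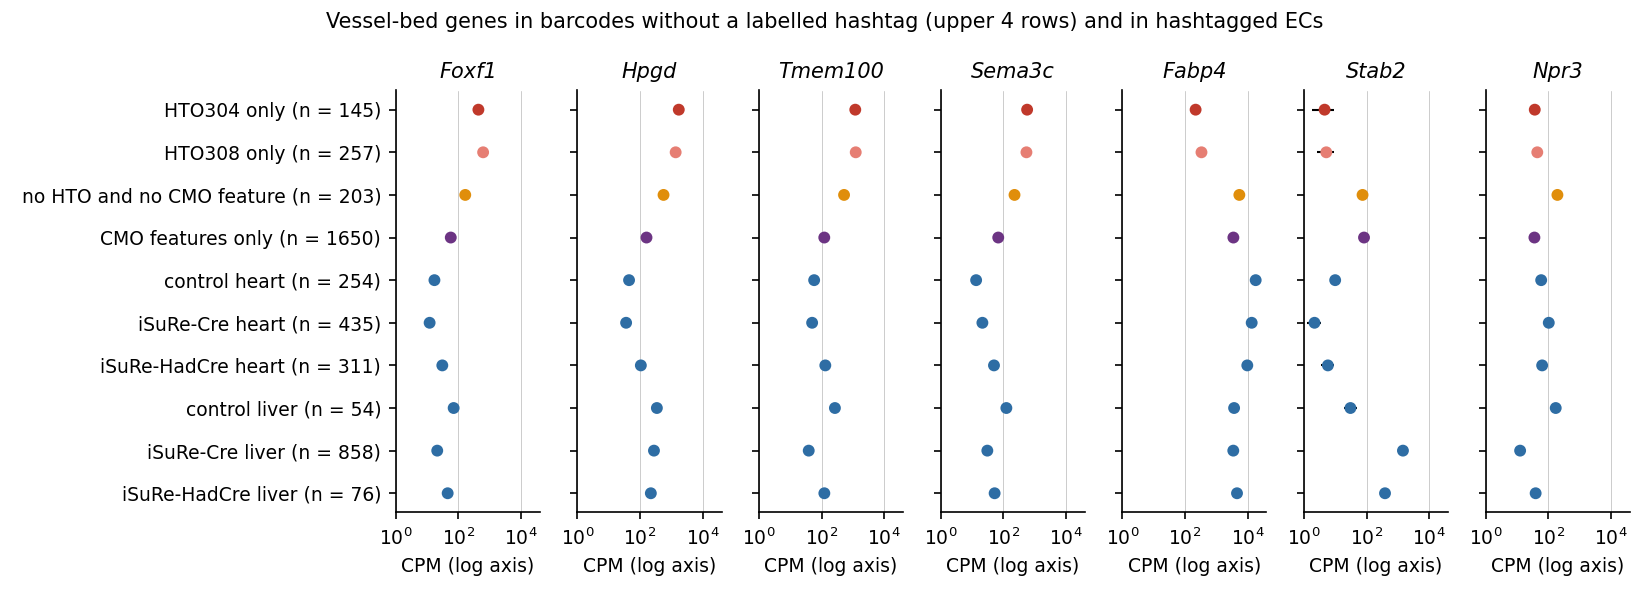
CPM (log axis) of 7 vessel-type genes in 4 sets of barcodes without a labelled hashtag and in the 6 hashtagged groups, each with its exact 95% Poisson interval. Foxf1, Hpgd, Tmem100 and Sema3c are highest in the HTO304 and HTO308 sets, where Fabp4 (219 and 336 CPM) and Stab2 (4.6 and 5.1 CPM) are low.

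Genes outside the lists moved as far. By the rule that named the 15 genes with the largest distance from all 6 groups, Scn7a (chromosome 2, 66673425 to 66784914, minus strand), a sodium channel, was at 2362 CPM, 5.28-fold (4.69 to 5.97) above the highest group. Nckap5 was at 1298 CPM (5.76-fold), the phosphodiesterase Pde3a at 722 (6.39-fold), Scn3b, a sodium channel subunit, at 227 (6.43-fold) and the mechanically gated channel Piezo2 at 661 (4.34-fold). Gna14, a G protein subunit, was at 106 CPM with a ratio of 7.21 (3.88 to 15.1), and Rasgef1a at 92.1 with 8.21 (3.94 to 20.6). Ttr also headed the order, but 98.8% of its UMIs came from 1 barcode. Of receptors and factors on other lists, Kit was at 366 CPM, Gata2 at 108, Bmp6 at 263, Cldn5 at 1326 and Nostrin at 461, each 2.08 to 3.13 times the highest group.

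Both features went with high levels of these genes, but not with equal ones. With HTO304 alone Foxf1 was at 435 CPM (403 to 469), Hpgd at 1724 (1659 to 1791), Tmem100 at 1181 and Sema3c at 575. With HTO308 alone Foxf1 was at 616 CPM (584 to 648), Hpgd at 1370 (1323 to 1419), Tmem100 at 1221 and Sema3c at 547. Foxf1 and Hpgd thus did not overlap in counting error, and differed in opposite directions. Cluster 12, with Car4 at 993 CPM, Foxf1 at 744 and Hpgd at 1791, and cluster 2, with Car4 at 114, Foxf1 at 697 and Hpgd at 2754, differed in Car4, which named cluster 12. The arterial-type connexin Gja4 led cluster 2. Emp2, Tbx2 and the ion channel Ryr2 led cluster 12.

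Barcodes without HTO304 or HTO308 did not have this pattern as a group. Their lung endothelial list had 0 of 13 genes past 2-fold against all 6 groups, or 2 where HTO304 or HTO308 barcodes were left out of the groups too, with Foxf1 at 74.1 CPM (68.4 to 80.1), Hpgd at 224 and Fabp4 at 3818. Over all genes 47 of 10531 were higher (0.446%) and 0 lower (0%). The lead genes were those of other cell types. Of 11 measured hepatocyte genes 9 were higher, among them Alb at 493 CPM (11.7 to 137 in the groups, 970 in free RNA) and Apoa1 and Fgb. The 4 adult globins were higher, Hbb-bs with 4716 CPM as against 574 to 1939, with 28194 in free RNA. Prtn3, Mpo and Elane, granule genes of neutrophil precursors, were 3 of 9 in their list. Col1a1 (385 CPM), Acta2 and Pf4 were also higher. Sftpc, the surfactant protein of alveolar epithelium, was at 103 CPM as against 0 to 3.22, and 2.27% of the barcodes had a UMI of it. Most of this level came from few barcodes, with 833 Sftpc UMIs in the cluster of 12 barcodes led by Sftpc and Sftpa1. What part free RNA and barcodes of other cells had in these values was not tested.

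The 203 barcodes with none of the 7 features had levels between the other sets for some genes only. Their Foxf1 was at 165 CPM, Hpgd at 562 and Tmem100 at 518, all above the 6 groups, and below the HTO304 or HTO308 barcodes. Their Fabp4 was at 5449 CPM, above both other sets and within the groups. Npr3, a natriuretic peptide receptor of endocardium, was at 196 CPM, as against 12.6 to 173 in the groups and 19.5 in free RNA, and its interval (173 to 221) overlapped that of control liver (142 to 209). Of the 1650 with CMO features only, Foxf1 was at 57.0 CPM, Fabp4 at 3514 and Npr3 at 36.1.

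Over all 2262 barcodes, 31 of 10773 genes were at least 2-fold higher than in all 6 groups (0.288%) and 0 were lower (0%). Both patterns were found among the 31. The lung-list gene Foxf1 was at 222 CPM (214 to 231), and Nckap5 at 564, Scn3b at 93.2 and Gna14 at 46.8 CPM were of the HTO304 or HTO308 kind. Alb (341 CPM), Apoa1, Fgb, Rbp4, Prtn3, Mpo, Elane and Ctsg were of the other kind. Ttr was at 742 CPM, but 51.7% of its UMIs came from 1 barcode. In the 773 endothelial-rich barcodes, compared with endothelial-rich barcodes of the groups, 59 of 9178 genes were higher (0.643%) and 2 were lower (0.0218%, Tinagl1 and Car8). Of the 13 lung endothelial genes 6 were among the 59, and Foxf1 was at 442 CPM.

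Vessel types were also counted per barcode, as the share with UMIs of at least 3 genes of a list after thinning to 2000 UMIs. For the lung endothelial list this was 44.6% (42.6 to 46.7) of the 2262 barcodes, as against 18.4% to 36.0% in the groups and 12.4% in haemoglobin-rich barcodes, with 21.1% of the 2262 at exactly 2 genes. Unthinned, it was 65.5%. It was 93.3% with HTO304 or HTO308, 52.2% with no feature and 31.9% with CMO features only. In the 416 endothelial-rich barcodes without HTO304 or HTO308 it was 58.6%, and 21.8% to 41.3% in endothelial-rich barcodes of the groups.

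On the other lists the 2262 as a whole lay within or below the range of the groups. Capillary genes were found in 77.2% of the 2262, within the 68.6% to 95.9% of the groups, beside 54.8% of haemoglobin-rich barcodes. Liver sinusoidal genes were found in 15.7%, as against 69.5% in iSuRe-Cre liver, 35.0% in control liver and 34.5% in iSuRe-HadCre liver, 1.9% to 3.1% in heart and 7.1% in haemoglobin-rich barcodes. Endocardial genes were found in 17.5% and in 35.7% of those with HTO304 or HTO308, whose Tmem100 and Bmp6 are on this list too. Both lay within the groups, from 5.1% in control heart to 44.3% in control liver. Arterial genes were found in 13.1%, tip-cell in 19.5% and lymphatic in 4.3%, each within the range of the groups. Venous genes were found in 14.4%, below the 15.3% to 55.6% of the groups and above the 6.6% of haemoglobin-rich barcodes. With HTO304 or HTO308 the brain endothelial list was found in 39.3% (34.6 to 44.3), beside 32.9% (27.3 to 39.2) in control heart, the highest group. The haemogenic list was found in 8.1% (5.6 to 11.1), beside 4.8% (2.7 to 7.8) in iSuRe-HadCre heart, the highest group. Both pairs of intervals overlapped. With HTO304 alone the arterial list was found in 40.3% (32.0 to 48.5) and the tip-cell list in 31.5% (24.3 to 40.0) of barcodes. With HTO308 alone it was 19.5% (14.8 to 24.8) and 46.3% (40.1 to 52.6). The arterial share was thus higher with HTO304 and the tip-cell share, by a narrow margin of the intervals, with HTO308. Within the HTO304 barcodes the intervals of these lists overlapped, so their order there is not settled.

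**Figure D4:**
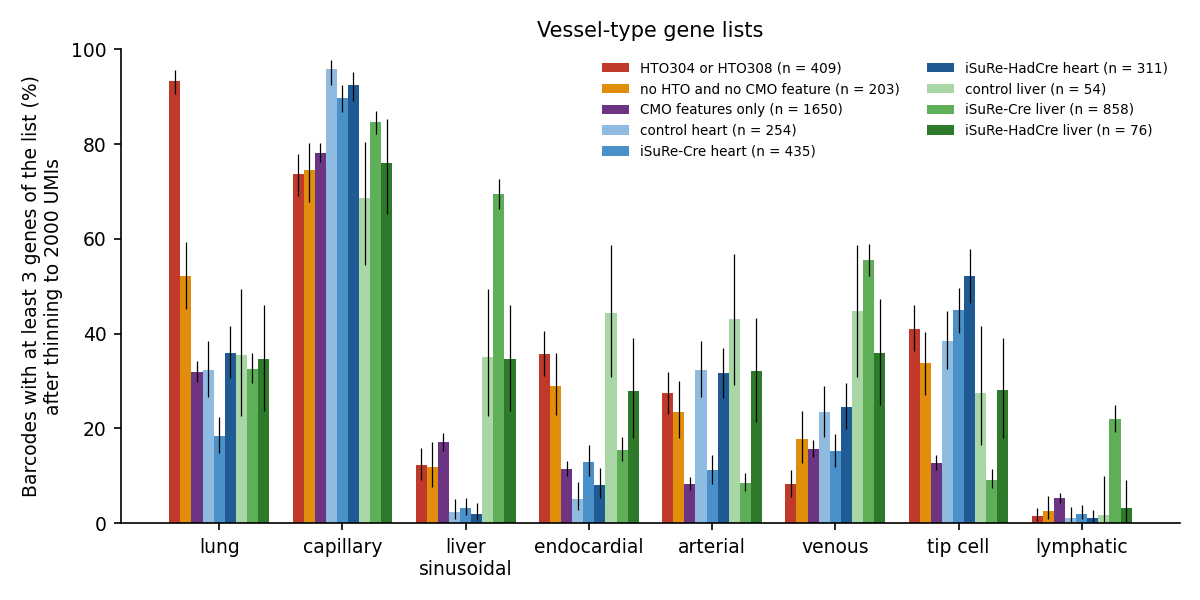
Percent of barcodes with UMIs of at least 3 genes of a vessel-type list after thinning to 2000 UMIs (y axis), with exact 95% binomial intervals, for 3 sets without a labelled hashtag and the 6 groups. The lung endothelial list is at 93.3% with HTO304 or HTO308 and at 18.4% to 36.0% in the groups.

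Genes of developmental stage came next. Of 20 measured genes of the fetal-stage list (growth and RNA-binding genes that decline after birth) 1 passed 2-fold in all 2262 barcodes, and 10 were above all 6 groups by any amount, as were 1794 of the 10773 genes tested. The gene past 2-fold was Dlk1, an imprinted Notch-related ligand, at 216 CPM (208 to 224), as against 20.8 to 92.0 in the groups and 294 in free RNA. The median log2 ratio of the 20 was 0.41, beside -0.03 over all genes.

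Dlk1 was at 275 CPM in barcodes without HTO304 or HTO308, at 87.5 in those with them and at 25 in the endothelial-rich. The growth factors Mdk and Ptn and the cell cycle inhibitor Cdkn1c had the same order. Mdk was at 525 CPM over all, 654 without HTO304 or HTO308, 247 with them and 127 in the endothelial-rich, with 185 to 354 in the groups and 608 in free RNA. Mdk was thus lowest in the endothelial-rich barcodes, and its level without HTO304 or HTO308 was close to that of free RNA. What part free RNA had in the fetal-stage values was not tested. In the HTO304 or HTO308 barcodes 0 of the 20 genes passed, and the median log2 ratio was -0.02. Peg3, an imprinted zinc-finger gene, was at 311 CPM there as against 108 to 193 in the groups. Peg3 was the 1 of 16 genes that passed in the endothelial-rich barcodes, at 213 CPM, with 293 CPM in free RNA. That comparison was with endothelial-rich barcodes of the groups, whose levels are not given here. The group ranges of Mdk and Peg3 above are of all barcodes of the groups.

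Of 25 measured genes of the postnatal and mature list, such as the MHC class I genes and caveolar genes, 0 were lower than all 6 groups by 2-fold in any of the 4 sets (all, endothelial-rich, with and without HTO304 or HTO308). The medians of the log2 ratio were -0.66, -0.37, -0.42 and -0.82. B2m, the MHC class I light chain, was at 492 CPM over all 2262, as against 442 to 1569 in the groups, and Cav1, of caveolae, at 541 as against 164 to 1548. The 2 that were higher with HTO304 or HTO308 were Hpgd, a lung gene as well, and Nostrin, which acts on endothelial nitric oxide synthase.

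Proliferation genes passed 2-fold in no set. Of 26, 0 passed 2-fold in all 2262 barcodes and 10 were above all 6 groups by any amount. With HTO304 or HTO308 15 were, beside 1890 of the 10116 genes tested. Mki67 was at 240 CPM (225 to 256) with these features, as against 68.0 to 179 in the groups and 156 in free RNA, and Top2a at 342 as against 123 to 257. Adult globins were at 7526 CPM summed over all 2262, at 1675 with HTO304 or HTO308 and at 1163 to 3946 in the groups. The 2262 include no barcode above 5% haemoglobin by the rule.

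Few position genes stood apart from the groups, and 0 Hox genes passed 2-fold. Hoxa5, an anterior Hox gene, was at 107 CPM (97.1 to 118) with HTO304 or HTO308, as against 6.60 to 20.0 in the heart groups and 48.6 to 78.5 in the liver groups. It was above all 6 but within 2-fold of control liver. Of 15 measured organ-position genes Foxf1 and Tbx3, both on the lung endothelial list as well, were higher by 2-fold and none was lower. The median log2 ratio of the 15 was -0.26, and 6 were below all 6 groups by any amount, as were 1153 of the 10116 genes tested. Gata6, a factor of heart and gut derivatives, was at 45.7 CPM, within the 22.7 to 55.6 CPM of the groups.

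Among receptors and ligands of the Notch pathway, Notch2 alone passed 2-fold, in barcodes without HTO304 or HTO308, at 86.0 CPM (79.9 to 92.5) as against 12.2 to 28.6 in the groups, with 60.7 in free RNA. In the endothelial-rich it was at 21.1. Notch4, the endothelial Notch receptor, was at 58.4 CPM with HTO304 or HTO308 and at 3.73 to 52.9 in the groups. The target Hes1 was at 312 CPM as against 79.7 to 248. Of 8 measured VEGF pathway genes Nrp2 was lower with HTO304 or HTO308 and none was higher. Kdr, at 547 CPM, and Nrp1, at 662, lay within the groups' 184 to 832 and close to the top of their 431 to 682 CPM.

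The transgene sequences were read out in the same way. WPRE, an element in the 3' part of the reporter transcript, was at 422 CPM (410 to 433) over all 2262 barcodes and at 160 CPM in free RNA. In the groups it was at 562 in control heart, 63.5 in iSuRe-Cre heart, 1055 in iSuRe-HadCre heart, 396 in control liver, 105 in iSuRe-Cre liver and 1070 in iSuRe-HadCre liver. Both iSuRe-HadCre groups were thus highest, both control groups lay between, and both iSuRe-Cre groups were below free RNA. The genotype of control is not in the labels, so what WPRE marks in the control groups cannot be told. The barcodes with HTO304 alone had 352 CPM (323 to 384) and those with HTO308 alone 951 (912 to 991), so these did not overlap in counting error. With no feature it was 547 CPM and with CMO features only 241. Tomato was at 63.7 CPM with HTO304 and 198 with HTO308, and Cre at 18.2 and 47.6. The sv40pA sequence went the other way, with 204 CPM for HTO304 and 65.6 for HTO308. Levels of Tomato, Cre and sv40pA in the groups and in free RNA are not given here.

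Notch1 (chromosome 2, 26457903 to 26516663, minus strand) was at 54.5 CPM (50.4 to 58.7) over all 2262. In the groups it was at 138 in control heart, 12.6 in iSuRe-Cre heart, 23.2 in iSuRe-HadCre heart, 160 in control liver, 21.4 in iSuRe-Cre liver and 30.7 in iSuRe-HadCre liver, so that the control groups were above the others, with 19.5 in free RNA. With HTO304 alone it was at 181 CPM (160 to 203) and with HTO308 alone at 28.3 (21.9 to 36.0). The former overlapped control liver (130 to 195) in counting error and lay above control heart (125 to 151), and the latter lay within the range of the iSuRe groups. A Notch1 UMI was found in 30.2% of the HTO304 and 4.4% of the HTO308 barcodes after thinning, and in 2.13% of haemoglobin-rich barcodes. Which sample either feature marked is not in the labels, and none is assigned here.

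**Figure D5:**
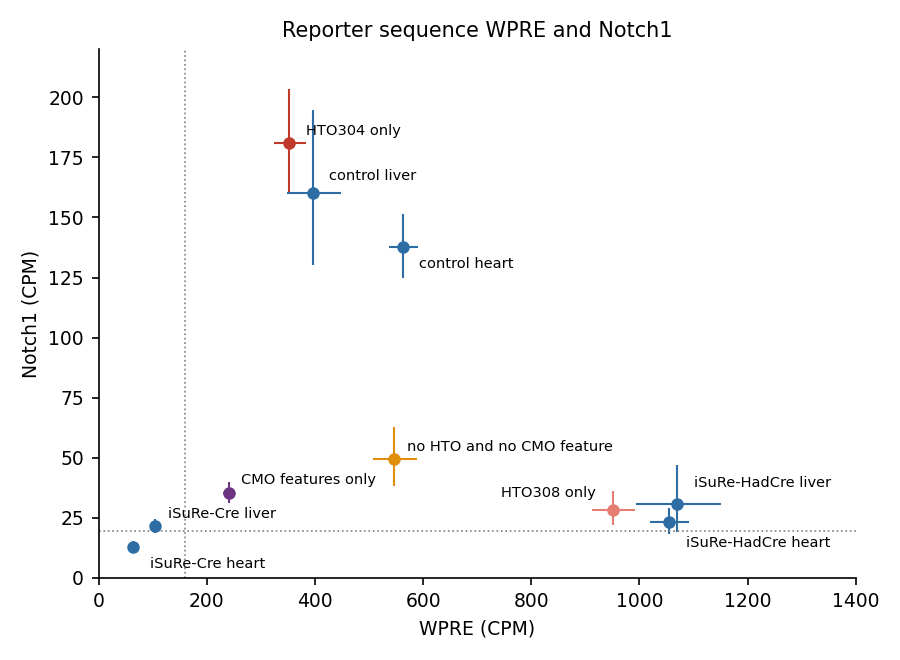
WPRE CPM (x axis) against Notch1 CPM (y axis) for the sets without a labelled hashtag and the 6 groups, with exact 95% Poisson intervals and dotted lines at the free RNA levels (160 and 19.5 CPM). HTO304 only lies at 352 and 181 CPM, and HTO308 only at 951 and 28.3 CPM.

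The hashtag limit itself was looked at last. Barcodes were ordered by their highest labelled hashtag count, with HTO302 divided by 12. Within the rule, Foxf1 was at 239 CPM in 659 barcodes with 0 to 2 UMIs and at 216 in 1603 with 3 or 4. Outside it, Foxf1 was at 166 in 1329 barcodes with 5 or 6 UMIs, at 75.1 in 1007 with 7 to 9 and at 34.2 in 1338 with 10 to 24. With HTO302 divided by 12, the last of these sets also takes in barcodes with 140 UMIs of HTO302. It can thus share barcodes with the iSuRe-Cre liver group and is not only a set next to the limit. Fabp4 went the other way, from 2230 and 2874 CPM within the rule to 3439, 5296 and 6941 outside it. Barcodes with 5 or 6 hashtag UMIs had Foxf1 above all 6 hashtagged groups, and Fabp4 close to the 3488 CPM of iSuRe-Cre liver.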

How the data were processed

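For the 1 library, alignment and quantification by the authors used Cell Ranger 7.1.0, with the mouse genome GRCm38 and added transgenes as reference, and Seurat followed. The deposited matrix holds raw UMI counts of every barcode over 21951 gene and transgene features and over the tag features. Each labelled hashtag was taken to be the feature with the same number. A further 60 lineage-barcode features were not used. The members and the gene lists were chosen with earlier results of these data known.

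UMI counts were summed per set and divided by the total to give CPM. Genes with at least 200 UMIs over the 7 sets compared were tested for the fold limit, with 10 CPM added. Genes named in the text were Cdh5, Pecam1, Notch1, the transgenes, list members, the 15 furthest above or below all 6 groups, and leading genes of clusters. Any other gene in the text was chosen with its values known. No doublet caller was run. Hashtagged barcodes carry exactly 1 labelled hashtag, while doublets among barcodes without one were not removed. Barcodes were thinned to 2000 UMIs in 20 seeded draws. Clusters were Leiden clusters at resolution 1 of 2000 variable genes without transgenes and 30 principal components (scanpy 1.11.5). Sets by HTO304, HTO308 and CMO features, at 25 UMIs, and the endothelial-rich limit were added after seeing the data. Coordinates are GENCODE genes on GRCm38. Python 3.11.15 and scipy 1.17.1 were used. Tested on simulated data of 10750 genes, the fold limit called 100 of 100 genes raised 4-fold and 98 of 100 lowered 4-fold, with 0 false calls. The intervals, which hold counting error alone, held the true ratio in 94.5% there. The changed genes were drawn from those of higher level only, and all sets shared 1 profile with counting error alone. These counts thus do not cover genes of low level or groups that differ from each other. With 10 CPM added, a gene under 10 CPM in any group cannot be counted as lower. How the fold limit behaves under spread between animals was not tested. Alternatives covered quality, Cdh5 and hashtag limits, removal of barcodes with genes of other cells, scaling, the CPM added and free RNA.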

Additional observations from a re-analysis of the deposited data

Results flagged for a closer look

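Tag features to which the labels give no sample carried signal in the barcodes without a hashtag. For the CMO features it was above the level in both hashtagged control groups, for HTO304 and HTO308 clearly above control heart only. At least 25 UMIs of HTO304 were found in 6.72% (5.72 to 7.83) of the 2262 barcodes, and of HTO308 in 11.7% (10.4 to 13.1). Control heart was at 0.787% (0.0955 to 2.82) and 4.33% (2.18 to 7.62). Control liver, the higher control group with 54 barcodes, was at 3.70% (0.452 to 12.7) and 9.26% (3.08 to 20.3). Its intervals held the values of the 2262 barcodes. CMO301 reached 25 UMIs in 60.6% (10.2% in the higher control group), CMO302 in 67.7% (22.2%), CMO303 in 39.3% (5.12%), CMO304 in 56.0% (11.1%) and CMO305 in 50.1% (7.41%). At least 1 CMO feature was found in 78.9% of the barcodes and at least 3 in 60.4%, so that most barcodes with these features had several. The CMO signal was not particular to these barcodes. Haemoglobin-rich barcodes reached 25 UMIs in 74.0%, 83.4%, 47.5%, 73.4% and 53.9% for CMO301 to CMO305, with at least 1 feature in 97.1% and at least 3 in 70.7%. In iSuRe-Cre liver the 5 features were found in 24.5%, 31.7%, 18.2%, 19.9% and 21.6%. What the features marked was not tested.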

How the results depend on the processing

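Which barcodes were kept changed the number of barcodes, the gene counts and WPRE, while the vessel-type shares also moved with thinning and with the number of genes required. The number of barcodes (2262) became 3423 with haemoglobin below 20%, 1434 with a Pecam1 UMI required, 595 with fewer than 3 hashtag UMIs, 4457 with fewer than 10, 850 with barcodes of other cell types left out, 773 if endothelial-rich and 478 without CMO barcodes. The endothelial-rich limits and the removal of HTO304 or HTO308 and of CMO barcodes were added after seeing the data.

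Genes higher than all 6 groups (31) became 49 with hashtagged barcodes from 50 UMIs, 107 below 20000 UMIs, 81 without barcodes of other cell types, 59 if endothelial-rich, 57 without HTO304 or HTO308 barcodes in all 7 sets (47 with these left out of the barcodes without a hashtag only), 58 without CMO barcodes, 68 with per-cell means, 66 and 10 with 1 and 50 CPM added, and 56 after free RNA subtraction. Genes lower (0) became 5 with Cdh5 above 1.5, 7 with fewer than 3 hashtag UMIs, 3 with clean hashtags, 4 below 20000 UMIs, 5 without other cell types, 2 if endothelial-rich, 4 without CMO barcodes, 1 with per-cell means, 5 with 1 CPM added and 3 after free RNA subtraction. Fetal-stage genes higher (1) became 0 with haemoglobin below 20%, a Pecam1 UMI or 50 CPM added, 5 below 20000 UMIs, 3 without other cell types, 2 without CMO barcodes and 4 with per-cell means. Mature genes lower stayed at 0 in each alternative run.

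WPRE (422 CPM) was 373 with haemoglobin below 20%, 504 with Cdh5 above 1.5, 482 with a Pecam1 UMI, 393 with fewer than 10 hashtag UMIs, 466 below 20000 UMIs, 702 without other cell types, 740 if endothelial-rich, 289 without HTO304 or HTO308 and 762 without CMO barcodes. The lung endothelial share (44.6%) was 39.1% with haemoglobin below 20%, 51.9% with Cdh5 above 1.5, 55.1% with a Pecam1 UMI, 41.4% with fewer than 10 hashtag UMIs, 65.7% without other cell types, 76.2% if endothelial-rich, 34.0% without HTO304 or HTO308, 77.3% without CMO barcodes, 41.9% with fewer than 3 hashtag UMIs, 65.5% unthinned, 30.9% at 4 genes and 84.8% at a limit of 7000 CPM. The endocardial share (17.5%) was 14.5% with haemoglobin below 20%, 19.7% with Cdh5 above 1.5, 22.2% with a Pecam1 UMI, 24.99% without other cell types, 31.1% if endothelial-rich, 13.4% without HTO304 or HTO308, 35.0% without CMO barcodes, 40.0% unthinned, 6.65% at 4 genes and 35.3% at 7000 CPM. The capillary share (77.2%) was 80.4% with Cdh5 above 1.5, 80.1% with fewer than 10 hashtag UMIs, 81.9% without other cell types, 82.5% if endothelial-rich, 92.4% unthinned, 53.4% at 4 genes and 80.2% at 7000 CPM. The sinusoidal share (15.7%) was 13.1% with fewer than 3 hashtag UMIs, 12.9% without CMO barcodes, 39.5% unthinned and 6.34% at 4 genes. Why these moved was not tested, beyond what each alternative leaves out.

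Of further values (levels of 8 genes, 7 other vessel-type shares and the count of lung endothelial genes higher) 99 moved and 81 did not under the alternatives listed first, and 51 and 4 under those added. Scaling by the median of ratios shifted ratios to iSuRe-Cre heart by -0.17 on the log2 scale and the others by -0.08 to 0.08. No paired analysis was possible because each group is 1 sample of 1 library. Depth limits low genes, since the median barcode without a hashtag held 3832 UMIs.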
